A study of Mus musculus with 7 samples.

Results

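The transcriptome described here is that of the control testis. Its members were chosen by genotype label only: the 3 libraries labelled WT (fl/Y males) of the 7 libraries of the series, with all 19719 genes listed for them ordered by their mean level and by their spread. RNA of total testis had been sequenced to compare fl/Y males, which carry a floxed *Rlim* allele that is not deleted, with cKO/Y Sox2-Cre males, in which Sox2-Cre had deleted *Rlim* throughout the body, both C57BL/6 and 8 weeks of age. The labels place fl/Y replicates 1 and 2 in batch 2 and fl/Y replicate 3 in batch 1. The 4 cKO/Y Sox2-Cre libraries (replicates 1 and 2 in batch 2, replicates 3 and 4 in batch 1) serve here to look at that batch and, in a few places, as values set beside those of fl/Y, and no difference between the genotypes was tested. *Rlim* itself, the X-linked ubiquitin ligase gene of the study, was listed at 99.5, 70.7 and 61.5 CPM in fl/Y replicates 1, 2 and 3. In the cKO/Y Sox2-Cre libraries its level lay between 20.7 and 35.7 CPM, below every fl/Y library.

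Spermatogenesis starts from spermatogonia that divide by mitosis, continues through meiosis in spermatocytes, and ends with spermiogenesis, in which round spermatids build an acrosome and a tail and elongate. During elongation histones are exchanged for transition proteins and then for protamines, and because transcription stops as the chromatin condenses, many spermatid mRNAs are stored and translated later. Sertoli cells nurse the germ cells inside the tubules, while Leydig cells between the tubules make testosterone. A library of total testis adds the RNA of all these cells together, so that fewer cells of a type and less RNA per cell cannot be told apart.

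Each value is a CPM, the reads of a gene scaled to a common library size. The 3 libraries held 5966049, 4795280 and 3657385 reads in the listed genes, and 1 read stood for 0.186, 0.202 and 0.265 CPM. A count of 0 therefore allows up to 0.558, 0.606 and 0.796 CPM (3 reads per library), which covers counting error only. More than 1 CPM was reached in each control library by 16750 genes, and 2 genes had no read in any of them. The median gene was at 8.68 CPM, with quartiles at 2.51 and 33.5 CPM. The study calls its libraries biological replicates from littermate males, but the labels tie no library to an animal or litter, and an SD or p here covers the spread between these samples only.

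A few genes took a large and unsteady part of the reads. The 10 most abundant genes held 29.6, 22.1 and 20.2% of reads in replicates 1, 2 and 3, a mean of 23.97% ± 4.98 (SD, n = 3), and the 100 most abundant held 33.4% ± 4.25. The genes that together held 50% of reads numbered 380, 591 and 618. The gene at the top was *mt-Rnr2*, the large ribosomal RNA of mitochondria, with 17.7, 17.1 and 8.08% of reads. Its small-subunit partner *mt-Rnr1* gave 3.18, 1.10 and 0.609%. CT010467.1, annotated as rRNA on chromosome 17 (chr17:39846353-39848827, GRCm38, minus strand), gave 4.60, 0.637 and 1.97%. All 3 rRNA genes were thus highest in replicate 1, and their sum was 25.5, 18.8 and 10.7% of reads.

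Next to them stood 7 genes of other annotation whose levels varied between the control libraries with CVs of 58.6 to 172%. *Lars2*, which encodes the leucyl-tRNA synthetase of mitochondria, was at 25635, 9520 and 58381 CPM, and Gm15564, annotated as an antisense RNA, at 583, 870 and 16460 CPM. Both were highest in replicate 3, in which Gm15564 alone made up 37.8% of all lncRNA reads against 2.23% and 3.27% in replicates 1 and 2. Gm26917, a lincRNA gene that ends at base 39846341 of chromosome 17, just before CT010467.1, was at 1400, 2311 and 4528 CPM. *Mir6236* (123 bases) was at 1435, 98.5 and 2199 CPM. These 7 genes and the 3 rRNA genes, grouped after their values were seen and called the rRNA-led group here, took 28.3, 20.1 and 19.1% of reads in fl/Y. Their share in the cKO/Y Sox2-Cre libraries was 37.9, 20.7, 14.1 and 8.43% in replicates 1 to 4, so the libraries of either genotype spread widely. Outside this group the concentration of reads was nearly alike in the control libraries. The 10 most abundant genes held 4.10% ± 0.278 of the remaining reads and the 100 most abundant 14.8% ± 0.170, and 1085, 1104 and 1089 genes held 50%. Because the group took in abundant genes that were seen to vary, part of this evenness follows from the choice.

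The other 3 genes of the group are annotated as miRNA genes and are 57 bases long. Gm24187 was at 1863, 6.66 and 0 CPM, Gm23935 at 449, 3.64 and 137 CPM, and Gm24270 at 154, 0.404 and 2.65 CPM, so that each was highest in replicate 1 by a wide margin. Their sequences are shown because they are nearly the same, although the genes lie on chromosomes 16, 9 and 13 (GENCODE M21 transcripts, GRCm38). Gm23935 (chr16:11144125-11144181, plus strand) and Gm24270 (chr9:56223715-56223771, minus strand) are identical, and Gm24187 (chr13:9834469-9834525, minus strand) differs from them by 1 substitution, G11A, counted from 1 at the 5′ end and in capitals below. All of the 35-base words of Gm23935 (the length of the reads) and 52.2% of those of Gm24187 recur in other genes, so that a read of such a word cannot be given to 1 gene from its sequence alone. The fourth sequence is the mature miRNA of *Mir6236* (RefSeq, GRCm38.p6, chr9:110281353-110281371, plus strand) with its seed, bases 2 to 8, in capitals, a seed that no other of the 1738 mature miRNAs in the table holds.
Gm23935: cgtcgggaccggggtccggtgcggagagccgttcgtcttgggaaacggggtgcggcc
Gm24270: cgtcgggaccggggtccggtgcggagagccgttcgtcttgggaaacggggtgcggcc
Gm24187: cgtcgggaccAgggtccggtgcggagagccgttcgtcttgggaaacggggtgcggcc
mmu-miR-6236: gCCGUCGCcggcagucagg

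By annotated class, protein-coding genes (14938 genes) took 69.98, 75.99 and 82.76% of reads in replicates 1, 2 and 3, a mean of 76.3% ± 6.39. Ribosomal RNA (3 genes) took 18.3% ± 7.41, long non-coding RNA (2799 genes) 3.20% ± 1.14, small and structural RNA (95 genes) 1.31% ± 0.194, pseudogenes (1035 genes) 0.640% ± 0.0735, and TEC genes, loci that await experimental support (846 genes), 0.302% ± 0.0222. The library with the most rRNA had the least protein-coding RNA and the reverse, since the shares of all classes sum to a whole. With the rRNA-led group left out, the protein-coding share was 94.4, 93.9 and 94.8% (94.4% ± 0.476) and the lncRNA share 3.04, 3.03 and 2.87% (2.98% ± 0.0912). Small and structural RNA then varied more than with the group, at 1.375, 1.857 and 1.072% (1.434% ± 0.396). The plot of read shares by class shows the libraries with and without the group.

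**Figure D1:**
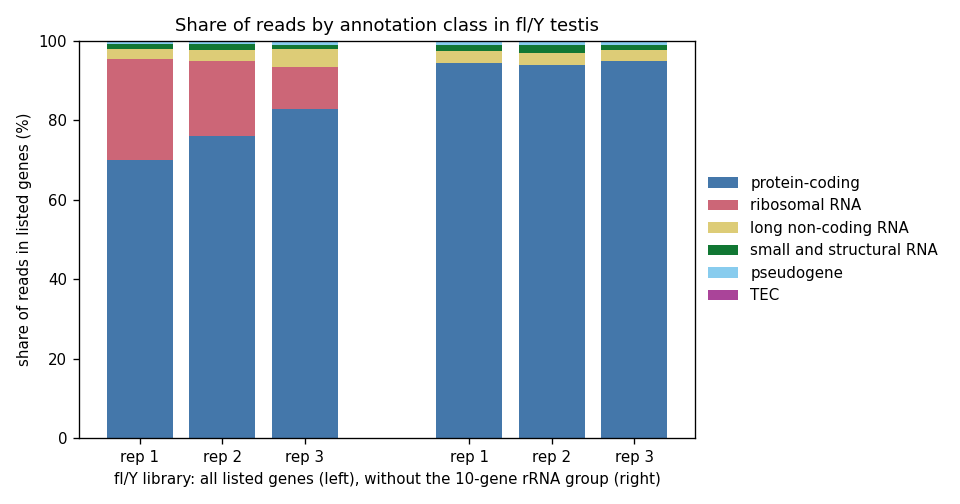
Share of reads (%) by annotated gene class in each fl/Y library, as stacked bars, over all 19719 genes on the left and without the 10 genes of the rRNA-led group on the right. On the left the protein-coding share runs from 69.98 to 82.76%, on the right from 93.9 to 94.8%.

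Among the non-coding genes outside the group, short RNAs of the nuclear and secretory machinery and a few long RNAs were the most abundant. The first was Rn7sk, the 7SK RNA that holds back the transcription elongation factor P-TEFb, at 7907, 9947 and 5658 CPM (7837 ± 2145), which gave 58.7% of the reads of its class. The second was the long *Malat1*, described with the lncRNAs. *Rpph1*, the RNA of RNase P, was at 812, 1398 and 1057 CPM, and Rn7s2, the RNA of the signal recognition particle, at 774, 1001 and 403 CPM. *Rmrp*, the RNA of RNase MRP, was at 437, 691 and 421 CPM, and Rn7s1, a second signal recognition particle gene, at 449, 531 and 246 CPM. All 5 short RNAs were highest in replicate 2, and Rn7sk, Rn7s2, *Rmrp* and Rn7s1 lowest in replicate 3. Between 69.8 and 100% of the 35-base words of these 5 genes recur in other annotated genes, and the level of each single copy is uncertain to that extent.

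Long non-coding genes were many but low. Their median was 2.77 CPM against 14.7 CPM in protein-coding genes, and per kb of exons 2.19 against 3.44 CPM. Only 26 of 2799 passed 100 CPM, against 1806 of 14938 protein-coding genes. *Malat1*, a nuclear RNA of speckles that most tissues express, was at 2038, 1422 and 1809 CPM (1756 ± 311). The next lncRNAs carry Riken names without an assigned role. Of these 4930571K23Rik was at 604, 701 and 723 CPM (676 ± 62.9), and 1700001L05Rik at 330, 330 and 301 CPM (321 ± 16.7). Without Gm15564 and Gm26917 the 10 most abundant lncRNA genes held 19.5, 18.4 and 19.5% of lncRNA reads. The most abundant pseudogene was 1700019M22Rik at 228 ± 14.2 CPM, and the most abundant TEC gene AC154573.1 at 127 ± 17.4 CPM.

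The protein-coding RNA of the control testis was spread over many genes. Its head held many germ-cell genes beside genes of wider use such as *mt-Co1*, *Trip12* and *Eef1a1*. Without *Lars2*, the 10 most abundant coding genes held 3.56, 3.60 and 3.55% of coding reads, the 100 most abundant 14.4% ± 0.129, and 1028, 1055 and 1025 genes were needed for 50%. A level above 1000 CPM was reached by 35 coding genes, and 31 of the 100 most abundant belong to 1 of the role lists used below. These lists are not all of germ-cell genes. They include mitochondrially encoded proteins (4 of the 100), chaperones (4) and reference genes (2). The upper end of the ranking was stable in part, with 18 genes among the top 25 of every library out of 33 that were in the top 25 of any, and 69 out of 131 for the top 100.

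After *Lars2* and *mt-Co1*, the cytochrome oxidase subunit that mitochondria encode (2952, 4022 and 3198 CPM), stood *Akap12*, a scaffold that binds protein kinase A, at 2284, 2540 and 3913 CPM (2912 ± 876). *Fhl4*, a LIM-domain gene of the testis, was at 3253, 2725 and 2357 CPM (2778 ± 451). *Fhl4* was highest in replicate 1 and *Akap12* in replicate 3, and the SD of each exceeds the difference of their means. Among the genes of the tail, *Dnah8*, a dynein heavy chain of the axoneme, was at 2458, 2487 and 3164 CPM. *Fsip2*, a protein that interacts with the fibrous sheath, was at 3134, 2859 and 2012 CPM, and *Odf2*, of the outer dense fibres, at 1419, 2307 and 3413 CPM. *Akap4*, the main protein of the fibrous sheath, was at 2685, 2219 and 2135 CPM (2346 ± 297) and was the only gene of the X chromosome among the top 25.

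Other genes in this head serve the acrosome, sperm energy and germ-cell proteins. *Crisp2*, a secreted cysteine-rich protein of acrosome and tail, was at 2849, 2138 and 1797 CPM. *Ldhc*, the lactate dehydrogenase of the male germ line, was at 2287, 2124 and 2014 CPM, with a CV of only 6.42%. *Ccdc136*, a gene needed for the acrosome, was steadier still at 1691, 1734 and 1813 CPM (CV 3.55%). *Phf7*, a histone ubiquitin ligase of spermatids, was at 1631, 1485 and 1439 CPM, *Trip12*, a ubiquitin ligase of many tissues, at 1854, 1832 and 1560 CPM, and *Adam5*, a metalloprotease-like gene of the sperm surface, at 1419, 1259 and 1038 CPM. These 3 genes had the same order of libraries, highest in replicate 1 and lowest in replicate 3. The list of 25 closes with the flippase gene *Atp8b3* (1480 ± 303 CPM), the chaperones *Hspa4l* (1419 ± 237 CPM) and *Hsp90aa1* (1237 ± 176 CPM), the uncharacterised 4932415D10Rik (1326 ± 170 CPM), the translation factor *Eef1a1* (1222 ± 286 CPM) and the germ-cell RNA-binding gene *Ybx3* (1211 ± 133 CPM). For 22 of the 25 under 10% of the 35-base words recur in other genes, while for *mt-Co1*, *Hsp90aa1* and *Eef1a1* the share was 60.5, 50.4 and 49.6%. Words were compared with annotated transcripts only, and matches to other sequence were not searched. A low share, such as the 0.680% of *Lars2*, therefore does not show that its reads come from 1 place. The plot of the most abundant coding genes gives each library for 24 of them.

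**Figure D2:**
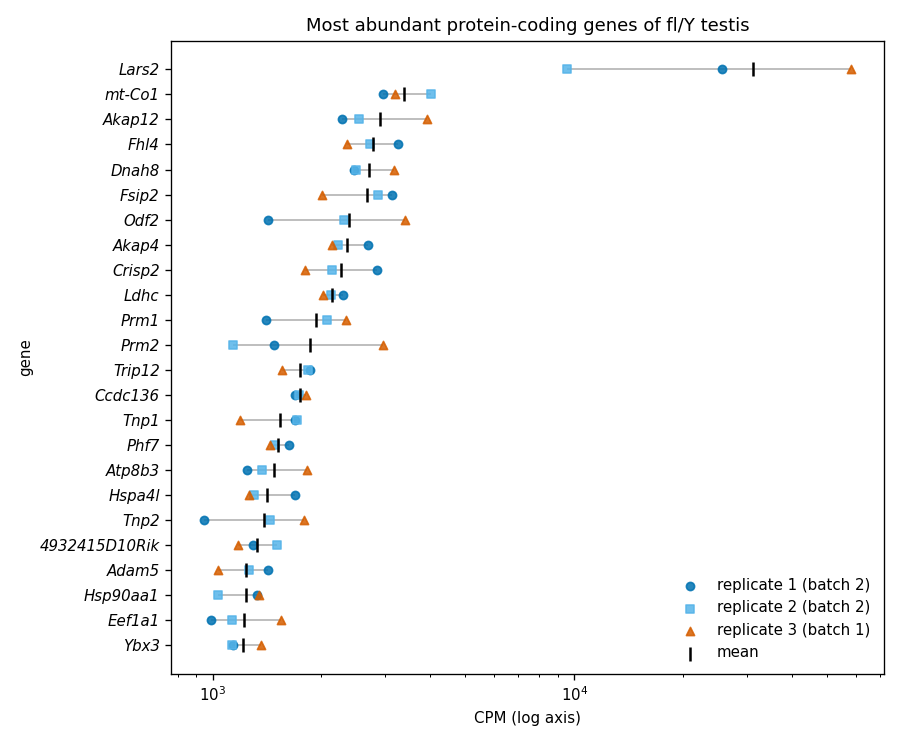
Level (CPM, log axis) of 24 of the 25 protein-coding genes with the highest mean in fl/Y, as 1 dot for each of the 3 libraries and a tick at the mean. Lars2 spans 9520 to 58381 CPM, while the dots of Ldhc and Ccdc136 lie close together.

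CPM counts reads and favours long transcripts. Per kb of exons, the small genes of spermatid chromatin led the coding genes outside *Lars2*. *Tnp1*, which encodes the first transition protein to replace histones, was at 3872, 3913 and 2729 CPM per kb (3505 ± 672), and *Prm1*, protamine 1, at 2453, 3632 and 4093 CPM per kb (3393 ± 846). *Tnp2*, the second transition protein, was at 1706, 2597 and 3232 CPM per kb (2512 ± 767), and *Prm2*, protamine 2, at 1651, 1274 and 3303 CPM per kb (2076 ± 1079). *Tnp1* was lowest in replicate 3 whereas the other 3 genes were highest there, and with SDs of this size the order among the 4 is not settled. *mt-Co1*, at 2195 ± 363 CPM per kb, lay between *Tnp2* and *Prm2*. Further down came *Ldhc* (1355 ± 87.0), *mt-Nd1* (1052 ± 218), the testis histone H2B gene *Hist1h2ba* (1013 ± 192), the meiosis-expressed *Meig1* (977 ± 121), *Gstm5* (849 ± 137), *Crisp2* (802 ± 190), *Fhl4* (782 ± 127), *Akap4* (775 ± 98.0) and the acyl-CoA-binding gene *Dbil5* (729 ± 153), all in CPM per kb. Of the 100 leading coding genes by CPM, 47 were also among the 100 leading per kb. The median exon length was 4.87 kb in the first set, 1.42 kb in the second and 4.32 kb over all coding genes.

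The promoters of *Tnp1*, *Prm1*, *Tnp2* and *Prm2* are shown because these genes lead the ranking per kb of spermatid genes. That of *Akap4*, which lies further down below *Ldhc*, *Crisp2* and others, is shown as the X-linked gene of this ranking. Each line holds the 250 bases before the start that RefSeq gives (GRCm38.p6), from 5′ to 3′ on the gene's strand, with matches to any of 7 motifs in capitals. The motifs, searched on both strands, were TGACGTCA (the cAMP response element) and its variants TGATGTCA, TGAAGTCA and TGAGGTCA, the TATA box TATAAA, the CCAAT box CCAAT and the GC box GGGCGG. TGATGTCA was added after the *Tnp1* promoter had been read. The windows are chr1:73015900-73016149 (*Tnp1*), chr16:10796824-10797073 (*Prm1*), chr16:10788656-10788905 (*Tnp2*) and chr16:10792106-10792355 (*Prm2*), all on the minus strand, and chrX:7067265-7067514 on the plus strand for the first of the starts listed for *Akap4*. The capitals mark TGATGTCA 94 bases before the start in *Tnp1* and 35 bases before it in *Akap4*, which also has CCAAT at 211 bases. They mark TGAAGTCA on the other strand 64 bases before the start in *Prm1*, the GC box on the other strand at 115 bases in *Tnp2*, and in *Prm2* the TATA box at 31 and the GC box at 108 bases, both on the other strand.
Tnp1: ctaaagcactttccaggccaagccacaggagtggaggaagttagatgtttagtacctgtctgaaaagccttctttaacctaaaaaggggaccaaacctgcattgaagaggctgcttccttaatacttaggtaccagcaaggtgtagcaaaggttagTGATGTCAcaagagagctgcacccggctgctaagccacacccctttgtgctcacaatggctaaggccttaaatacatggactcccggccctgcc
Prm1: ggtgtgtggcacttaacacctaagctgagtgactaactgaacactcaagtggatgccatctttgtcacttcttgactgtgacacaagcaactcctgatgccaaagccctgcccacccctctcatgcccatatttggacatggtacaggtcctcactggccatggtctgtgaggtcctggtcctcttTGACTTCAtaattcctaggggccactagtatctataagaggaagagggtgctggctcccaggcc
Tnp2: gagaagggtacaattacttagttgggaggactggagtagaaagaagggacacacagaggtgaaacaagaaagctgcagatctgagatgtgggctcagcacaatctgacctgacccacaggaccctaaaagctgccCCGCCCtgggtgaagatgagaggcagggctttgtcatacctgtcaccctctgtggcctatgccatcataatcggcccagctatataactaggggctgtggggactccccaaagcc
Prm2: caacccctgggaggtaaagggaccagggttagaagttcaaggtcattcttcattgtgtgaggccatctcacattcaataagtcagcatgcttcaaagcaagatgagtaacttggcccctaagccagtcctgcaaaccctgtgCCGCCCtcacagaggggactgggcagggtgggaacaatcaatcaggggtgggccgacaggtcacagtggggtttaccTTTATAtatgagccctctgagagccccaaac
Akap4: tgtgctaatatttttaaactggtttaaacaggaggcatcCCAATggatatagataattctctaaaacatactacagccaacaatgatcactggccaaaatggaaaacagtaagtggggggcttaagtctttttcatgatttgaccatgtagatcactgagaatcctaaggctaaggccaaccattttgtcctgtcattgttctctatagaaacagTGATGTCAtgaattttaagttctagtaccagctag

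*Crem*, whose protein binds cAMP response elements in round spermatids, was at 208, 223 and 192 CPM in the control libraries. TGATGTCA lay in the 250-base window of at least 1 listed start in 14 of the 100 coding genes with the highest CPM per kb among those with a matched promoter. The other shares of genes were counted in the same way. Its share was 7.25% in the next ranks up to 500, 4.27% in ranks 501 to 2000, 2.17% in ranks 2001 to 5000 and 2.61% in the rest, against 2.96% of all 11857 matched coding genes and 2.93% of 32851 promoters of the table. The 14 genes include *Tnp1*, *Akap4*, the tail gene *Akap3* (296 ± 23.1 CPM per kb) and the germ-cell gene *Gsg1* (474 ± 59.5). The chromatin gene *Hmgb4* (507 ± 40.9), the glycolysis gene *Pgam2* (330 ± 84.4) and the sperm thioredoxin *Txndc2* (298 ± 11.9) are also among them. *Ccdc54*, *Tmco2*, *Galntl5*, *Allc*, *Tex48*, *Iqcf3* and *Iqcf4* are the others, at 197 to 330 CPM per kb. The canonical TGACGTCA was held by 2 of the 100 against 2.83% of all matched genes, TGAAGTCA by 2 against 1.223%, TGAGGTCA by 2 against 1.80%, the TATA box by 12 against 8.70%, the CCAAT box by 46 against 40.2% and the GC box by 46 against 58.8%. These shares are descriptions of letters in a window, with no test, and of the coding genes on chromosomes covered by the table, 11857 of 14514 were matched.

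Lists of genes by role show how the reads were spread over the work of the spermatid. They were drawn from textbook knowledge but with earlier results of these data known. Their counts are therefore descriptions and no independent check. Genes listed for the sperm tail, not all of them structural, summed to 14289, 15553 and 16369 CPM (15404 ± 1048). All 27 were above 10 CPM and 23 above 100 CPM, against 1806 above 100 CPM of all 14938 coding genes. Besides *Odf2* and *Akap4* the highest were *Tcp11* (1169 ± 307 CPM), a sperm protein of the tail, and the fibrous-sheath-linked *Gstm5* (1085 ± 175 CPM). Sperm chromatin genes summed to 7497, 8344 and 10222 CPM, of which *Tnp1*, *Tnp2*, *Prm1* and *Prm2* made up the greater part. *Hils1*, a linker histone of spermatids, was steady at 269, 259 and 258 CPM, while the spermatocyte linker histone *Hist1h1t* was at 438, 409 and 227 CPM. Chaperones summed to 7044 ± 763 CPM, with the chaperonin subunit *Tcp1* at 1207 ± 138 CPM and the meiotic chaperone *Hspa2* at 763, 637 and 1150 CPM.

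Genes of germ-cell transcription and RNA control summed to 6902 ± 446 CPM, and 16 of 17 were above 100 CPM. *Tdrd6*, a tudor-domain gene of the chromatoid body, was at 1104, 1051 and 1061 CPM with a CV of 2.63%, and *Pabpc1*, the poly(A)-binding protein, at 813 ± 121 CPM. *Ybx2*, which binds stored mRNAs, was at 480, 587 and 980 CPM, and the manchette gene *Hook1* at 770, 605 and 493 CPM, so the 2 genes had opposite orders of libraries. Acrosome and sperm-surface genes summed to 5608 ± 516 CPM, led by *Crisp2*, the chaperone *Clgn* (509 ± 68.2 CPM), *Dkkl1* (472 ± 102 CPM) and the fertilin gene *Adam2* (357 ± 57.8 CPM). Energy isozymes of sperm summed to 5275 ± 379 CPM, with *Hk1* at 596, 523 and 1020 CPM, *Pgk2* at 615 ± 92.0 CPM and the glycerol kinase-like *Gykl1* at 337 ± 8.24 CPM. Tubulins and actin-like genes summed to 3475 ± 401 CPM, led by *Tubb4b* (585 ± 131 CPM) and *Tuba3b* (458 ± 132 CPM). Testis kinases and phosphatases summed to 1814 ± 154 CPM, led by the calcineurin subunit *Ppp3r2* (323 ± 60.1 CPM) and the spermatid kinase *Tssk2* (230 ± 27.8 CPM). The sum of each list is set by its number of genes and their lengths, so the sums do not rank the roles.

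The 87 genes of cytosolic ribosomal proteins and their paralogues summed to 5105, 5294 and 6402 CPM, and none was among the 100 most abundant coding genes. The highest was *Rpl4* at 204 ± 10.7 CPM, followed by *Rps24* at 196.6 ± 55.04 CPM and *Rplp0* at 195.4 ± 55.5 CPM, and the median member was at 57.1 CPM. A median of 26.3% of their 35-base words recur in other genes, and the level of a gene with many processed copies is uncertain. The 13 protein genes of the mitochondrial genome took 0.569, 0.808 and 0.625% of reads, very unevenly. *mt-Co1*, *mt-Nd1*, *mt-Nd2* and *mt-Cytb* were at 3391 ± 561, 1007 ± 208, 653 ± 135 and 640 ± 29.3 CPM. By contrast *mt-Co3*, *mt-Co2* and *mt-Atp6*, whose products belong to the same respiratory complexes or to the ATP synthase, were at only 29.1 ± 0.791, 28.7 ± 3.20 and 26.01 ± 4.99 CPM, and *mt-Nd3* and *mt-Nd4l* at 2.33 ± 1.33 and 1.59 ± 0.237 CPM. Of the 35-base words of these 5 low genes 98.1 to 100% recur in other annotated genes, against 0% in *mt-Nd1*, 3.69% in *mt-Cytb* and 11.4% in *mt-Nd2*, but *mt-Co1* (60.5%) and *mt-Nd4* (62.7%, at 277 ± 80.2 CPM) were high and *mt-Atp8* (5.29%, at 2.00 ± 0.531 CPM) was low. Whether reads that match several places were left out of the count was not tested.

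Markers of the cell types, also chosen with earlier results of these data known, were set beside the label of the tissue. Of all 19719 listed genes, 9252, 9281 and 9313 were above 10 CPM in replicates 1, 2 and 3. That is the background for the counts of markers above 10 CPM given for these lists. Elongating spermatid markers summed to 10349, 10790 and 13077 CPM (12 of 12 above 10 CPM), spermatocyte markers to 3628, 3164 and 2579 CPM (16 of 19), and round spermatid markers to 1737, 1985 and 2069 CPM (15 of 15). The spermatocyte sum was highest in replicate 1 and the spermatid sums in replicate 3. Spermatogonial markers summed to 137, 144 and 141 CPM (6 of 14 above 10 CPM), with a median of 7.33 CPM, and *Nanos2* is not listed. Among the higher ones were the stem-cell gene *Id4* at 29.0 ± 6.26 CPM and *Kit*, of differentiating spermatogonia, at 19.4 ± 1.21 CPM. Within the spermatocyte list the synaptonemal complex genes *Sycp2* and *Sycp1* were at 789, 649 and 435 CPM and at 472, 391 and 233 CPM, both highest in replicate 1 and lowest in replicate 3, while *Stag3*, a meiotic cohesin, was at 480, 467 and 488 CPM and *Syce1* at 340, 320 and 312 CPM.

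The somatic lists had lower sums than those of spermatids and spermatocytes, but lists differ in size, and the median Leydig marker (60.4 CPM) was above the median spermatocyte marker (49.3 CPM). The median Sertoli marker was at 14.98 CPM. Sertoli markers summed to 684, 870 and 929 CPM, led by *Clu* (381 ± 126 CPM), which codes for clusterin, and 14 of 21 were above 10 CPM. Leydig markers summed to 777, 637 and 696 CPM, with the steroid enzymes *Cyp17a1* at 233 ± 54.4 CPM and *Cyp11a1* at 87.7 ± 5.13 CPM, and *Star*, the cholesterol carrier, at 81.2 ± 11.6 CPM. *Insl3*, a peptide hormone of Leydig cells, went against this evenness at 1.12, 6.26 and 51.5 CPM. Its values among the cKO/Y Sox2-Cre libraries were 5.89 and 3.79 CPM in batch 2 and 119 and 61.1 CPM in batch 1, so the batch 1 libraries of both groups lay above all batch 2 libraries. Of the 35-base words of *Insl3* 62.8% recur in *Jak3*, and its level is uncertain to that extent. Peritubular myoid markers summed to 392.8 ± 35.01 CPM, macrophage markers to 105 ± 11.4 CPM, endothelial markers to 46.6 ± 6.37 CPM and 3 of 5 red blood cell markers to 23.2 ± 6.16 CPM, in which *Hba-a1*, an alpha globin, was at 0.959 ± 0.319 CPM. Of 7 epididymal markers only *Rnase10* is listed, at 2.05, 2.83 and 0 CPM. The plot of marker sums shows each list except the epididymal one by library.

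**Figure D3:**
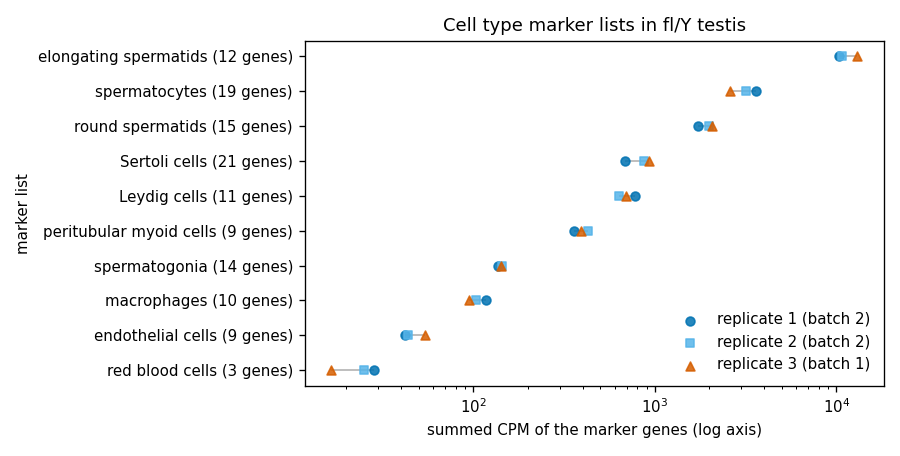
Summed CPM (log axis) of each list of cell type markers, except the epididymal list, in the 3 fl/Y libraries, 1 point for each library. The elongating spermatid list is highest at 10349 to 13077 CPM, and the spermatogonial list lies at 137 to 144 CPM.

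The X chromosome held few abundant RNAs. As background, the sex chromosomes are silenced in spermatocytes during meiosis, and some of their genes are expressed again in spermatids. Its 698 genes were 3.54% of the genes and took 1.62, 1.52 and 1.37% of the reads outside the rRNA-led group (1.502% ± 0.123). The median coding gene was at 6.56 CPM on the X and at 15.3 CPM on the autosomes, and per kb at 2.27 and 3.52 CPM. Of 587 X-linked coding genes 10 passed 100 CPM (1.70%, against 12.5% on the autosomes). *Akap4* was apart from all others, the next being the deubiquitinase gene *Usp9x* at 269, 226 and 225 CPM, Gm14569 at 222 ± 23.7 CPM and the spermatid gene *Tsga8* at 118, 178 and 188 CPM. The Y chromosome took 0.0365% ± 0.00517 of these reads, led by the translation initiation factor gene *Eif2s3y* at 54.3, 48.3 and 29.4 CPM.

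The spread between the control libraries was larger than counting alone gives. Over the 6747 genes at a mean of 20 CPM or more the median CV was 14.8%, while the reads counted would give 6.31% by Poisson error. A CV under 10% was found for 1961 genes (29.1%) and over 50% for 75 (1.11%), but the latter count was 230 without replicate 2 and 32 without replicate 3. Replicates 1 and 3 were farthest apart, with a median absolute log2 difference of 0.32, against 0.21 between replicates 1 and 2 and 0.22 between replicates 2 and 3. By class, the 3 rRNA genes had CVs of 41.7, 90.7 and 91.2%, and the median CV was 49.0% over 14 genes of small and structural RNA, 20.8% in pseudogenes, 18.1% over 17 TEC genes, 15.3% in lncRNA and 14.7% in protein-coding genes. In genes above 1000 CPM the median CV was 18.5% against a counting error of 1.15%, well over what these depths give. From 1 to 5 CPM the median CV was 33.6% against 31.2% from counting, and at that level a difference between genes in their spread was not detectable.

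**Figure D4:**
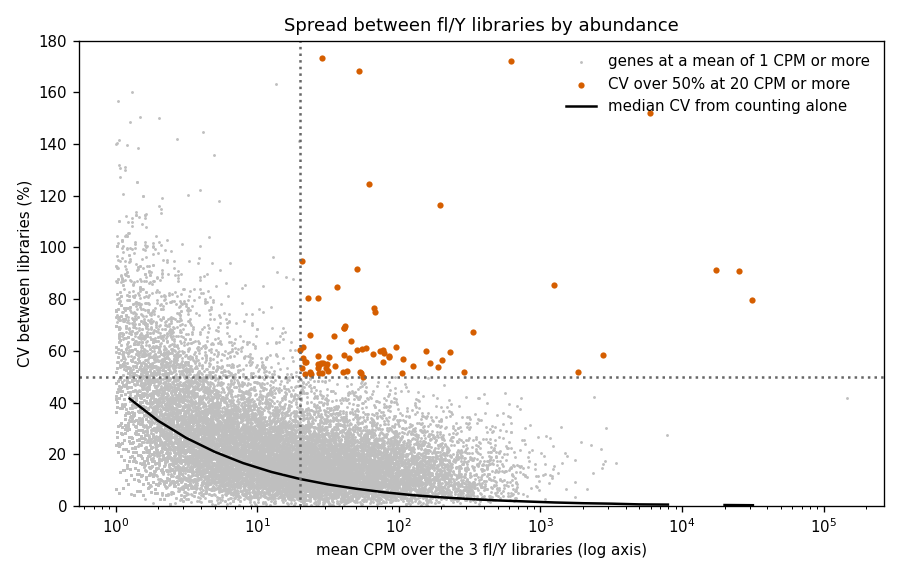
CV between the 3 fl/Y libraries (%) against mean CPM (log axis) for each gene at 1 CPM or more, with the 75 genes over 50% among those at 20 CPM or more in orange and the CV expected from counting as a line. Most genes lie above the line, and the distance grows with the mean.

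The steadiest genes at 50 CPM or more were those of the lowest CV and were named for it, so their evenness is a description. *Sptbn1*, a beta spectrin, was at 206.5, 205.8 and 206.1 CPM (CV 0.184%), and *Slc26a8*, an anion transporter of sperm, at 142.6, 143.0 and 143.2 CPM (CV 0.227%). *Uhrf1bp1l*, *Fam149b*, *Ppp4r2*, *Fam220a*, *Zpr1*, *Ccdc13*, *Man2a2*, *Atp9b*, C530008M17Rik and *Ppm1d* followed, with CVs of 0.407 to 0.976%. Counting error alone would give these 12 genes CVs of 2.42 to 6.36%, so with 3 libraries their closeness is below what counting can resolve. In the cKO/Y Sox2-Cre libraries, which were not used to name them, none of the 12 passed an adjusted p of 0.05 between the batches by limma, edgeR or DESeq2 and 0 passed an unadjusted p of 0.05 by limma, and their differences were 0.38 at most on the log2 scale. Of all 18925 genes 0.264% passed the adjusted and 15.9% the unadjusted threshold by limma, so that few calls would be looked for among 12 genes. Without cKO/Y Sox2-Cre replicate 1, and again without replicate 2, 1 of the 12 was called. *Sptbn1* was at 231, 161, 209 and 174 CPM there and C530008M17Rik at 495, 328, 330 and 291 CPM, wider than in fl/Y.

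Of 22 genes often used as a reference, *Tbp*, the TATA-binding protein, was the steadiest at 118, 122 and 128 CPM (CV 3.82%). *Rps29* was the least steady at 10.8, 3.03 and 27.3 CPM (CV 90.5%). *Gapdh*, the glycolytic enzyme of most tissues, was at only 5.25 ± 0.709 CPM, while its sperm isozyme *Gapdhs* was at 212, 199 and 382 CPM. Per kb these are 1.27 ± 0.172 and 164 ± 63.5 CPM. In the same way *Pgk1* was at 2.69 ± 0.968 CPM per kb and its retrogene *Pgk2*, used by sperm, at 378 ± 56.6 CPM per kb. Of the words of read length, 27.45% in *Gapdh* and 54.55% in *Pgk1* recur in other genes. The share was 6.61% in *Gapdhs* and 0% in *Pgk2*. The levels of *Gapdh* and *Pgk1* are uncertain to that extent, and the effect on these contrasts was not tested. *Actb*, at 347, 439 and 464 CPM, and *Eef2*, at 1057, 1133 and 1326 CPM, were both highest in replicate 3.

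Most of the genes that varied most were highest in replicate 3, the only control of batch 1. Among the 75 genes with a CV over 50%, it was the highest library for 58 (77.3%, against 35.2% of all 6747 genes at 20 CPM or more), the lowest for 10 and in between for 7. In the cKO/Y Sox2-Cre libraries, both of batch 1 were above both of batch 2 for 38 of those 58 genes and below for 0. This is not far from the 57.7% above among all 2376 genes that were highest in replicate 3, with 104 below. For the 10 genes lowest in replicate 3, both batch 1 libraries were below in 10, against 50.8% of all 2834 genes lowest there. With limma on log2(CPM + 0.5), 15 of the 75 differed between the batches at an adjusted p under 0.05, 7 higher and 8 lower in batch 1, and 54 at an unadjusted p under 0.05. Over all 18925 genes tested 27 (0.143%) were called higher and 23 (0.122%) lower in batch 1, and 3016 had an unadjusted p under 0.05. The 75 genes were at 20 CPM or more, whereas the genes tested include lower ones with more counting error. The 2 sets are thus not alike in level, and the share called among all genes at 20 CPM or more was not computed. That count of 50 calls was 3914 without cKO/Y Sox2-Cre replicate 1, 1018 without replicate 2, 29 without replicate 3 and 110 without replicate 4, and 167 by DESeq2. In fl/Y itself, batch 1 holds 1 library, so that its batch and its own nature cannot be told apart.

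Of the 12 genes with the highest CV, some followed the batch and some did not. Gm12896, a processed pseudogene, had no read in fl/Y replicates 1 and 2 and 85.9 CPM in replicate 3, and in the cKO/Y Sox2-Cre libraries it had none in batch 2 and 97.0 and 6.52 CPM in batch 1 (limma, adjusted p = 0.0148). Of its 35-base words 99.0% recur in Gm12895. The lincRNA Gm26822 ran the other way, at 38.9, 23.0 and 0 CPM in fl/Y and at 34.1, 4.98, 0 and 0 CPM in the cKO/Y Sox2-Cre libraries (adjusted p = 0.0129), as did the TEC gene AA474408 at 63.6, 43.8 and 2.65 CPM in fl/Y (log2 difference in cKO/Y Sox2-Cre −4.39, SE 0.521, adjusted p = 0.00475). *Rpl21*, of the large ribosomal subunit, was at 18.2, 29.5 and 103 CPM in fl/Y, and 22.3, 13.4, 91.0 and 96.9 CPM were measured for cKO/Y Sox2-Cre replicates 1 to 4. Its difference between the batches was 2.41 (log2, SE 0.267, adjusted p = 0.00338), and *Rps29* behaved alike with 2.15 (adjusted p = 0.00599). *mt-Rnr1* was lower in batch 1 by −2.95 (log2, SE 0.42, adjusted p = 0.0121), and Gm24187 had no read in either batch 1 library of cKO/Y Sox2-Cre, against 6906 and 285 CPM in batch 2 (adjusted p = 0.000167).

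Gm15564, *Mir6236* and CT010467.1, and *Lars2* just outside the 12, overlapped between the batches. Among cKO/Y Sox2-Cre replicates 1 to 4, *Lars2* was at 57432, 2676, 41266 and 46.9 CPM (adjusted p = 0.497), and CT010467.1 at 235208, 15022, 15330 and 103 CPM (adjusted p = 0.157). In Gm15564 the batch difference was −0.56 (log2, SE 2.18, adjusted p = 0.929) and in *Mir6236* −3.48 (log2, SE 2.12, adjusted p = 0.442). In each of the 4 genes replicate 4 was the lowest cKO/Y Sox2-Cre library. Gm1821, a processed pseudogene whose words recur in the ubiquitin gene *Ubb* to 84.8%, was highest in replicate 2, at 9.30, 149 and 25.7 CPM, although it was called higher in batch 1 of cKO/Y Sox2-Cre (log2 difference 1.79, SE 0.268, adjusted p = 0.0148). The 57-base genes Gm24270 and Gm23935 complete the 12, with an adjusted p of 0.054 and 0.251. For *Insl3* the difference between the batches was 4.04 (log2, SE 0.335, adjusted p = 0.000167), the gene lying at a mean of 19.6 CPM in fl/Y, just under the 20 CPM minimum for the ranking by spread.

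**Figure D5:**
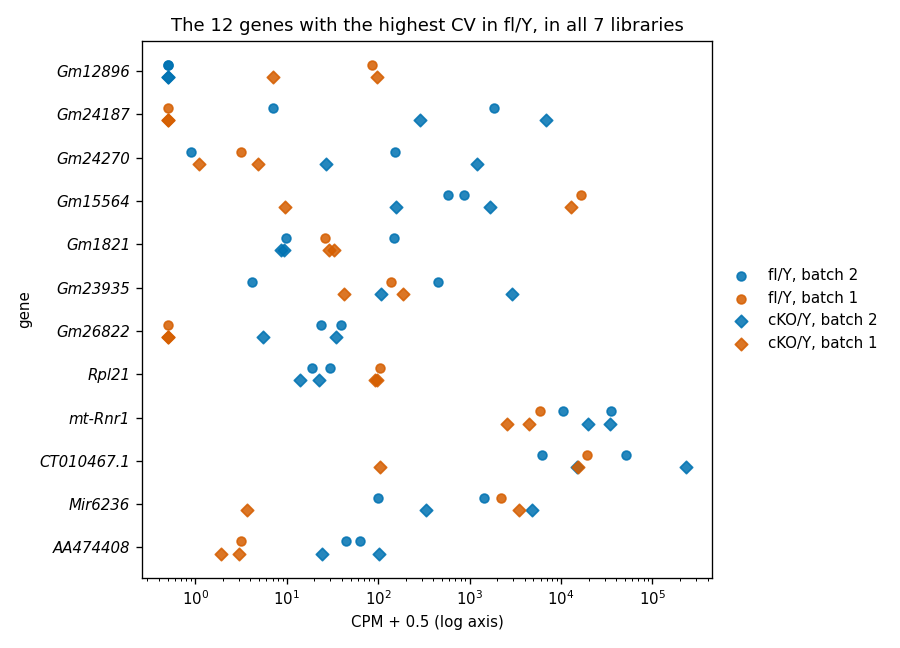
Level (CPM + 0.5, log axis) of the 12 genes with the highest CV in fl/Y, in all 7 libraries, with the batch as colour and the genotype as shape. Gm12896 and Rpl21 are higher and Gm26822, AA474408 and mt-Rnr1 lower in the batch 1 libraries of either genotype, whereas Gm15564 and Mir6236 overlap between the batches of cKO/Y Sox2-Cre.

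GC content moved with the order of the libraries. Coding genes at 20 CPM or more were split into 4 equal bins by the GC content of their longest transcript, from 31.0 to 70.7%. The median log2 difference of fl/Y replicate 3 from replicates 1 and 2 was −0.31 in the bin of lowest GC, −0.10 and 0.06 in the next ones and 0.26 in the highest. The same differences between the batches of the cKO/Y Sox2-Cre libraries were −0.44, −0.15, 0.11 and 0.37. A gradient was also present inside batch 2, where replicate 2 differed from replicate 1 by −0.24, −0.08, 0.03 and 0.19 from the lowest to the highest bin. Replicate 3 was the highest control for 8.74, 24.2, 44.8 and 63.9% of genes in the 4 bins, and 46 of the 58 coding genes with a CV over 50% and a known GC content lay in the highest bin. Examples are *H2afx*, the histone variant of DNA damage and the sex body (62.3% GC), at 20.1, 58.6 and 121 CPM, *Ggn*, a germ-cell gene (63.5% GC), at 58.9, 65.2 and 164 CPM, and *Prrc2a* (60.6% GC) at 171, 241 and 591 CPM. *Prm2* (56.7% GC, CV 52.0%) lies in that bin too, and *Rpl21* (49.2% GC) does not, while *Insl3* (63.6% GC) was under the 20 CPM needed. Over bins of the length of that transcript, from short to long, the medians were −0.02, −0.02, −0.04 and −0.03 in fl/Y and 0.11, −7.66e-04, −0.07 and −0.12 in cKO/Y Sox2-Cre. The part of GC content in the level of any 1 gene was not tested.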

How the data were processed

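RNA of total testis was measured in 3 fl/Y and 4 cKO/Y Sox2-Cre libraries, grouped by their genotype labels. Per the labels' processing notes the authors used HISAT2 2.1.0, featureCounts and edgeR on GRCm38, whereas the methods of the study name TopHat and HTSeq. Strandedness and depletion of ribosomal RNA are not given in the sources used here. The deposited table holds CPM computed by the authors after scaling, so its columns sum to different totals and it was treated as a signal. Each column was made of whole multiples of the value of 1 read (100% of values within 0.001 of a read). Levels are the mean ± SD and CV of the deposited CPM, and CPM per kb divides by the union of exons in GENCODE M21 (19687 genes). Genes of the table with the same coordinates in M21 numbered 18100 (91.8%).

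Batches were compared within cKO/Y Sox2-Cre on log2(CPM + 0.5) with limma 3.58.1 in R 4.3.3, for genes above 1 CPM in at least 2 libraries, with the p-values (two-sided) corrected after Benjamini-Hochberg and a threshold of 0.05. The fold changes are on that log2 scale and understate those of low genes. On the recovered reads, edgeR 4.0.16 called 74 genes and DESeq2 1.42.0 called 167, against 50 by limma. The method was tested on simulated data. Descriptions were computed with Python 3.11.15, and 35-base words were matched to GENCODE M21 transcripts on both strands.

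Named are the 25 coding and 15 other genes of highest mean CPM, the 15 of highest CPM per kb, the 12 of highest CV (at 20 CPM or more) and the 12 of lowest CV (at 50 CPM or more), up to 4 members of each list, and the reference genes of lowest and highest CV, and 1 of the 25 coding genes is not reported here. The most abundant gene of each biotype was also in the rule, and is named where the class is described. The genes of the rRNA-led group, *Rlim*, *Insl3*, *Crem*, the lower mitochondrial genes, *Gapdh* and other genes beyond that rule were chosen after their values were seen. The members and lists were chosen with earlier results of these data known. Alternatives were other pseudocounts and filters, lengths, left-out genes and libraries, and the count tests.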

Additional observations from a re-analysis of the deposited data

Results flagged for a closer look

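Within the 4 cKO/Y Sox2-Cre libraries, 20 sets of values were searched for a library far from the others, by the gap to its nearest neighbour as a share of the whole range of the group (Dixon's test at 95%). For normal values the test flags about 1 in 20 groups by chance. That rate does not hold here. The values were CPM without a log, most sets were genes picked for their spread in fl/Y, and Gm23935 and Gm24270 have the same sequence. In 7 genes the highest library stood apart. These were Gm24270, with 1211 CPM in replicate 1 against 26.3 CPM in the next library (share 0.979), Gm24187, with 6906 against 285 CPM (0.959), Gm23935, with 2933 against 187 CPM (0.950), CT010467.1, with 235208 against 15330 CPM (0.935), Gm12896, with 97.0 CPM in replicate 3 against 6.52 CPM (0.933), Gm15564, with 12719 CPM in replicate 3 against 1672 CPM (0.869), and Gm26822, with 34.1 CPM in replicate 1 against 4.98 CPM (0.854). The 3 fl/Y libraries were not searched in this way.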

How the results depend on the processing

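With 3 libraries, leaving 1 out or taking the median cannot move a mean by a full SD. Most alternatives for the mean CPM of the 53 named genes were of these kinds, and only the rescaling could fail. The mean moved by less than the SD between libraries in 262 of 265 alternatives, a count that was thus largely fixed in advance. The exceptions were 3 of the steadiest genes, which went from 206.1 to 206.9 CPM (*Sptbn1*), 142.9 to 143.5 CPM (*Slc26a8*) and 157.1 to 157.7 CPM (*Uhrf1bp1l*) when the libraries were rescaled to the same sum (added after the data were seen). With mitochondrially encoded genes left out, per kb of exons, and without the rRNA-led group (added after the data were seen), the 10 most abundant genes held 10.1, 41.0 and 4.10% of reads in place of 23.97%, the 100 most abundant 20.7, 54.0 and 14.8% in place of 33.4%, and 50% of reads lay in 916, 66.3 and 1093 genes in place of 530. In the same order, protein-coding genes took 90.6, 51.6 and 94.4%, ribosomal RNA 2.94, 26.8 and 0%, pseudogenes 0.766, 1.66 and 0.824% and TEC genes 0.365, 0.359 and 0.392%. Small and structural RNA took 1.59% without mitochondrial genes and 13.8% per kb, and lncRNA 5.82% per kb. The median CV was 10.5 to 15.9% when 1 fl/Y library was left out, and 32 to 230 genes had a CV over 50% (86 without replicate 1, 230 without replicate 2, 32 without replicate 3). With minimum means of 5 and 50 CPM, 280 and 38 genes had such a CV.

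Genes that differed between the batches of cKO/Y Sox2-Cre numbered 50 in the test as described, 38 and 63 with pseudocounts of 0.1 and 1 CPM, 64 with no filter and 74 by edgeR, but 167 by DESeq2, 1348 over all 7 libraries with the genotype as a covariate, and 29 to 3914 when 1 library was left out, in which case the lone library of its batch is assumed to vary like the others. Of the 75 most variable genes, 13 to 72 were called. The direction turned for Gm15564 (2.77 by edgeR, 2.79 by DESeq2, 1.48 over all 7 libraries, and −5.74 to 4.63 with a library left out, positive without replicate 1, 1.14, or 4), Gm26917 (0.49 over all 7 libraries, −0.997 to 0.87 with a library left out, positive without replicate 1 or 4, 0.52), *Mir6236* (−8.42 to 1.47) and *Lars2* (−8.03 to 1.74), both positive without replicate 4 only, and *Tbp* (−0.34 to 0.13), positive without replicate 2 only, all log2 of batch 1 over batch 2. The cause was not tested. No paired analysis was possible because each replicate number lies within 1 batch in fl/Y and no difference between the genotypes was tested. With 3 control libraries, SDs and CVs are themselves imprecise, and below 5 CPM counting error is most of the spread.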
